A study of Mus musculus with 36 samples.

Results

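The genes described here are Ahr, Ahrr, Arnt, Cyp1a1, Cyp1b1 and Tiparp, 6 of the 54532 genes in the deposited count table, found by their symbols and each matched to 1 entry. They belong to the pathway of the aryl hydrocarbon receptor (AhR) and were followed in all 36 RNA-seq libraries, by genotype and treatment. The libraries came from bone marrow-derived macrophages of female C57BL/6 mice aged 13 to 17 weeks, grown for 7 days with the growth factor MCSF. The study asked how CCM, a small molecule that binds the PASB domain of the clock protein BMAL1, acts on macrophages with and without Bmal1. WT cells were from Bmal1 flox/flox littermates without Cre (n = 3 replicates per treatment). KO cells were from LysM-Cre;Bmal1 flox/flox mice (n = 6 replicates per treatment), in which the myeloid LysM promoter drives Cre, so that Bmal1 is deleted only as far as Cre acted in the cultured cells. Both genotypes therefore carry floxed Bmal1. Each was kept for 6 h with vehicle (DMSO), 100 µM CCM, 100 nM LPS, a bacterial cell wall component that activates macrophages, or LPS+CCM.

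AhR is a ligand-activated transcription factor of the bHLH-PAS family, the family to which BMAL1 also belongs. Without ligand it is held in the cytosol by chaperones; with ligand it enters the nucleus, pairs with ARNT and binds DNA with the core sequence GCGTG near target genes. Its classical targets include the cytochrome P450 genes Cyp1a1 and Cyp1b1 and the genes of 2 proteins that restrain it, Ahrr and Tiparp, and in macrophages the receptor is known to take part in the control of inflammatory genes.

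Counts on genes totalled 13469262 to 28288923 read pairs in a library (median 19951421). Levels are given as CPM, a gene's counts scaled by library total and edgeR's TMM factor to a common size of library, and changes as log2 fold changes, where 1 is a 2-fold change. A gene was called when its p from edgeR's quasi-likelihood test, adjusted by Benjamini and Hochberg's method over all genes tested in that comparison, was 0.05 or lower. Genes with few counts were first removed by edgeR's filter. Intervals of fold changes are 95% intervals from the standard error. GEO's labels do not say which animal each numbered replicate came from, so these tests measure the spread between the libraries at hand. Within groups, any pair of libraries differed beyond counting error (lowest chi-square per degree of freedom 4.08). On the build mm10 (GRCm38), Ahr (ENSMUSG00000019256) lies at chr12:35497974-35535038 on the minus strand and Arnt (ENSMUSG00000015522) at chr3:95434388-95497240 on the plus strand. Ahrr (ENSMUSG00000021575) lies at chr13:74211118-74292331 on the minus strand. The 3 targets are Cyp1a1 (ENSMUSG00000032315) at chr9:57687928-57703824, plus strand, Cyp1b1 (ENSMUSG00000024087) at chr17:79706953-79715041, minus strand, and Tiparp (ENSMUSG00000034640) at chr3:65528410-65555518, plus strand. Whether counting was stranded is not stated, so the counts of Ahr and Tiparp may include reads of genes on the other strand (Gm48236 and 4931440P22Rik). Arnt overlaps Gm42672 on its own strand, so its count may include reads of that gene whether or not counting was stranded. No overlapping gene was found for Ahrr, Cyp1a1 and Cyp1b1, and the deposited model of Cyp1b1 is shorter than the 79701537 to 79715061 that GENCODE release 21 gives.

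The cells carried macrophage markers: all 7 of Adgre1, Csf1r, Cd68, Itgam, Mertk, Fcgr1 and Lyz2 were above 0 in every library, with summed levels of 11179 to 19983 CPM and Lyz2 the most abundant in the median library. Markers of other cells summed to less, with 413 to 1112 CPM for 6 neutrophil genes (S100a9 highest), 302 to 1659.5 CPM for 5 fibroblast genes (Col1a1 highest) and 0.943 to 10.4 CPM for 4 erythroid genes (Hba-a1 highest). B cell genes summed to 1.21 to 9.76 CPM (Cd79b highest), T cell genes to 0.061 to 3.13 CPM (Cd3d highest) and dendritic cell genes to 2.11 to 6.85 CPM (Xcr1 highest). The upper ends of the B cell, T cell, dendritic cell and erythroid sums were libraries of KO replicate 6. Without that replicate they were 4.85, 0.886, 5.75 and 6.58 CPM, in the same order. KO replicate 6 stood apart in all 4 treatments. Its macrophage genes did not move in 1 direction: Adgre1, Csf1r and Mertk were the lowest of the 6 KO libraries in each treatment and Fcgr1 the highest. Mertk was 30.9, 27.6, 43.1 and 33.7 CPM with vehicle, CCM, LPS and LPS+CCM, and Fcgr1 was 127, 131, 779 and 641 CPM. Its haemoglobin gene Hba-a1 was 8.21, 10.2, 4.13 and 7.47 CPM in the same order, the highest of the 6 each time, and its neutrophil sums were 1054, 1098, 1112 and 1089 CPM, the highest of the 6 except with vehicle, where replicates 3 and 4 had 1073 and 1097 CPM.

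The libraries labelled KO replicate 2 went against their label in Lyz2, the gene into which LysM-Cre is inserted. Their Lyz2 was 13247 CPM with vehicle and 14354 with CCM, then 11052 with LPS and 14686 with LPS+CCM. WT libraries had 12079 to 14467 CPM with vehicle and 10457 to 11035 with LPS, and the other 5 KO libraries 7184 to 9461 with vehicle and 5862 to 8994 with LPS. Within KO LPS+CCM, replicate 5 also stood apart from its own number, with 10177 CPM of Lyz2 and 40.2 CPM of Mertk, where replicates 1, 3 and 4 had 94.8 to 105 CPM of Mertk. The targeted gene Arntl (which encodes BMAL1) was detected in every library. With vehicle it was 7.52, 8.65 and 9.98 CPM in WT and ran from 2.87 over a median of 7.61 to 7.98 CPM in KO, where the lowest was replicate 6. With LPS it was 10.2, 8.08 and 9.34 CPM in WT and from 2.02 over a median of 7.14 to 9.03 CPM in KO, where the highest was replicate 2. The genotypes overlapped, and a count over the whole gene includes exons outside the deleted part, so it does not check the deletion. The members' changes with CCM in KO are given with all libraries, without KO replicate 6, and without replicates 2 and 6, a choice made after seeing the data. Their changes with LPS in KO are given with and without replicate 6, and the gene lists in KO with all libraries.

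Levels of different genes were compared per kilobase of the deposited gene length. In WT with vehicle the order of mean levels was Tiparp (8.25 CPM per kb, SD 0.737, n = 3), Cyp1b1 (7.15, SD 2.60), Arnt (6.00, SD 0.162), Ahrr (1.93, SD 0.115), Ahr (0.547, SD 0.0623) and Cyp1a1 (0.0889, SD 0.115). The ranges of Tiparp and Cyp1b1 overlapped there, as did those of Cyp1b1 and Arnt. In WT with LPS the order was Tiparp (29.0 CPM per kb, SD 2.09), Cyp1b1 (9.49, SD 1.88), Arnt (6.91, SD 0.777), Ahrr (6.08, SD 0.825), Ahr (3.14, SD 0.466) and Cyp1a1 (0.169, SD 0.0831). Here Tiparp lay above the rest without overlap, while Cyp1b1 overlapped Arnt and Arnt overlapped Ahrr. With LPS+CCM in WT, Ahr (4.19 CPM per kb, SD 0.378) stood above Ahrr (3.16, SD 0.0283) without overlap, the reverse of their order with LPS alone. Ahr was also above Ahrr by mean in KO LPS+CCM (3.28 and 2.73 CPM per kb, SD 0.852 and 1.17, n = 6), with overlapping ranges.

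**Figure D1:**
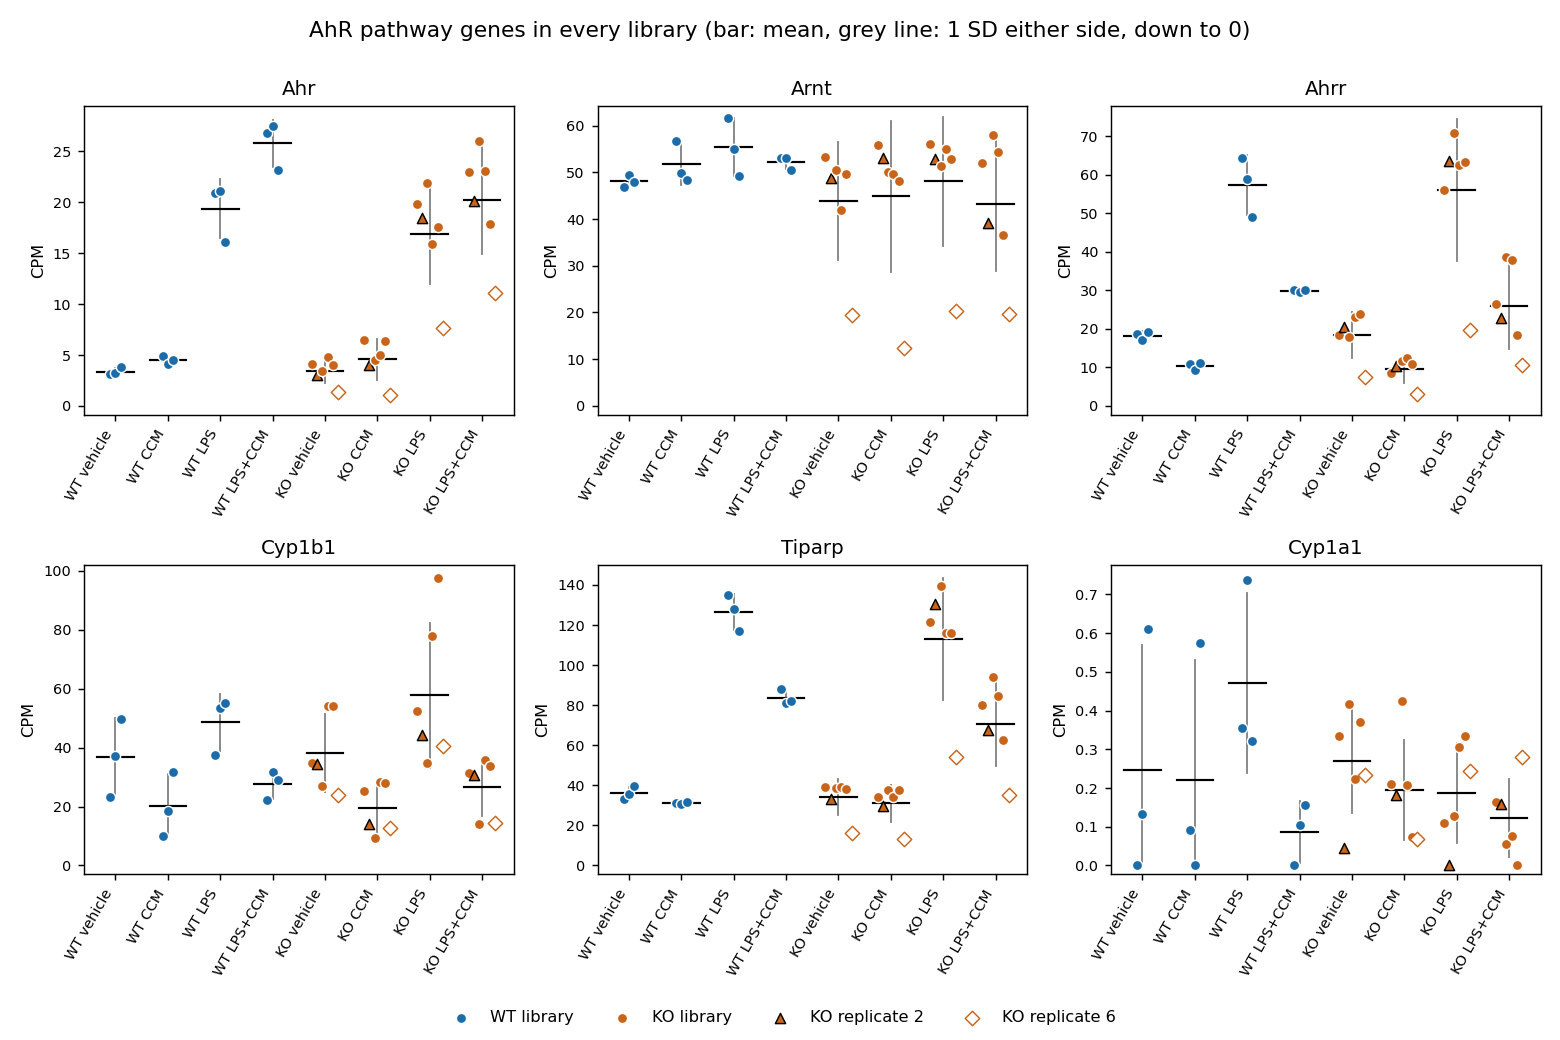
Level of each AhR pathway gene in CPM (linear axes from 0, each gene with its own scale) in the 36 libraries, by genotype and treatment; bars are means, grey lines 1 SD either side, and KO replicates 2 and 6 have their own symbols. KO replicate 6 is the lowest KO library of Arnt and Ahrr in every treatment, and Cyp1a1 stays under 0.74 CPM in all libraries.

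The bases before the gene starts are shown for the members whose counts allow a test and that have an entry. RefSeq promoters on GRCm38.p6 matched 5 of the 6 members; Ahr has no entry. The motif GCGTG was searched on both strands (CACGC on the other strand), and capitals mark each match. The 250 bases end at the base before the RefSeq start and are written 5′ to 3′ on the gene's strand. They are chr13:74292332-74292581 (minus strand) for Ahrr, chr3:95434140-95434389 (plus) for Arnt, chr17:79715062-79715311 (minus) for Cyp1b1 and chr3:65528197-65528446 (plus) for Tiparp.
Ahrr: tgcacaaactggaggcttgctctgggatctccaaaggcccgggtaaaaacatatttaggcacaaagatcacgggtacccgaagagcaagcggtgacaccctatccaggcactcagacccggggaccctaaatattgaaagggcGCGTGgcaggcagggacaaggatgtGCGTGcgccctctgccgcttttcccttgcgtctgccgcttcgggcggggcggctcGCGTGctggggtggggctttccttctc
Arnt: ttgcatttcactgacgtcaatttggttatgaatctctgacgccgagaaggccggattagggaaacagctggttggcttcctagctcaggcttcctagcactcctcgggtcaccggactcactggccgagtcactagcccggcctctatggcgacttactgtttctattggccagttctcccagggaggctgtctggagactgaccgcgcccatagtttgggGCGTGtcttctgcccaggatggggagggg
Cyp1b1: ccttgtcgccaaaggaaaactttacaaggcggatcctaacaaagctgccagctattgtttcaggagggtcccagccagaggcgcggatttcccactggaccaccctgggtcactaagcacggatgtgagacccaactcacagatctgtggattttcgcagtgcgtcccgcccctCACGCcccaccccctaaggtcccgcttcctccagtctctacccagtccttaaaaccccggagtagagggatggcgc
Tiparp: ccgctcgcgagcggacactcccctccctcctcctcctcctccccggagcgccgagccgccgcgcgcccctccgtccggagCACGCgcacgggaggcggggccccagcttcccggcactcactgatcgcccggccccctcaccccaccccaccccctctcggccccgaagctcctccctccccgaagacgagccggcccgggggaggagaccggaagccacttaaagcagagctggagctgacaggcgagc
Ahrr held 3 matches, all as GCGTG, at 107 to 103, 82 to 78 and 27 to 23 bases before the start. Arnt held 1 at 29 to 25 bases, as GCGTG. In Cyp1b1 the 1 match lay at 76 to 72 bases and in Tiparp at 170 to 166 bases, both as CACGC. The 250 bases of Cyp1a1 held 1 match, at 54 to 50 bases, so the motif was present in 5 of the 5 members with an entry. Of the 32851 promoters in the table, 28.2% held it in the same 250 bases (95% exact binomial interval 27.7 to 28.6%) and 2.77% held 3 or more copies. Arnt, which was not called with CCM in any of the 4 comparisons, held the motif too. A match describes the letters of the window and not a bound site.

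Ahr, the ligand-binding receptor, was low without LPS and rose with it in both genotypes. In WT it was 3.11, 3.19 and 3.81 CPM with vehicle and 20.9, 21.2 and 16.1 CPM with LPS, in the order of replicates 1 to 3. KO libraries ran from 1.39 over a median of 3.69 to 4.77 CPM with vehicle and from 7.69 over a median of 18 to 21.9 CPM with LPS. Every LPS library lay above every vehicle library of its genotype, and the lowest value of each KO group was replicate 6. The rise was 5.81-fold in WT (log2 fold change 2.54, standard error 0.154, n = 3 each, edgeR adjusted p = 2.6e-07) and 4.84-fold in KO (2.27, standard error 0.269, n = 6 each, edgeR adjusted p = 1.1e-05). Without KO replicate 6 the KO value was 2.26. In bulk libraries like these, fewer cells of a type and less RNA per cell cannot be told apart.

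CCM moved Ahr upward under LPS in WT. With LPS+CCM, WT libraries had 26.8, 27.5 and 23.1 CPM, each above all 3 libraries with LPS alone. Ahr rose 1.34-fold there (log2 fold change 0.43, standard error 0.113, edgeR adjusted p = 0.0354, higher in 3 of 3 same-numbered libraries). This call was lost without LPS replicate 2 (adjusted p = 0.0534), LPS replicate 3 (0.0839), LPS+CCM replicate 1 (0.0931) or LPS+CCM replicate 2 (0.153), and over the 11 alternatives the adjusted p ran from 9.7e-05 to 1. KO LPS+CCM libraries ran from 11.1 over a median of 21.5 to 26.0 CPM and overlapped those with LPS alone, where the log2 difference was 0.23 (standard error 0.234, edgeR adjusted p = 0.860), higher in 6 of 6 same-numbered libraries. Without replicate 6 it was 0.22, and without replicates 2 and 6 it was 0.24. Unstimulated WT libraries had 4.92, 4.10 and 4.55 CPM with CCM, also above all 3 with vehicle, but its log2 difference of 0.43 (standard error 0.174, edgeR adjusted p = 0.463) was not called. Unstimulated KO libraries with CCM ran from 1.04 over a median of 4.72 to 6.51 CPM, which gave 0.39 (standard error 0.359, edgeR adjusted p = 1.0), higher in 5 of 6; the exception was replicate 6, without which the value was 0.42, and 0.43 without replicates 2 and 6.

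Arnt, the partner that AhR needs to bind DNA, was among the steadiest members. In WT it was 46.8, 49.4 and 48.0 CPM with vehicle, 56.8, 49.8 and 48.5 with CCM, 61.7, 55.03 and 49.3 with LPS and 53.2, 53.0 and 50.4 with LPS+CCM. KO medians were 49.3 CPM with vehicle and 49.8 with CCM, then 52.8 with LPS and 45.6 with LPS+CCM. All 4 WT groups overlapped with at least 1 other, and in KO the low ends of 19.4, 12.5, 20.2 and 19.6 CPM were replicate 6, with highest values of 53.4, 55.8, 56.0 and 58.1 CPM. CCM gave log2 fold changes of 0.11 (standard error 0.0729) in unstimulated WT, 0.02 (0.309) in unstimulated KO, -0.07 (0.0800) under LPS in WT and -0.18 (0.266) under LPS in KO, none of them called (edgeR adjusted p = 0.642, 1.0, 0.628 and 0.884). Without replicate 6 the KO values were 0.05 and -0.17, and without replicates 2 and 6 they were 0.04 and -0.11. With LPS in WT, Arnt was called higher by 0.23 (standard error 0.0853, edgeR adjusted p = 0.0383). Scaling by total counts alone moved the median of all genes by -0.38 for LPS in both genotypes, more than this value, so its direction rests on the scaling chosen; for CCM it moved the median by at most 0.09. The call was also lost without LPS replicate 1 (adjusted p = 0.132), LPS replicate 2 (0.0790), vehicle replicate 1 (0.0790) or vehicle replicate 3 (0.0597), and over the 11 alternatives the adjusted p ran from 0.00956 to 0.700. In KO the log2 fold change with LPS was 0.13 (standard error 0.250, edgeR adjusted p = 0.727), also 0.13 without replicate 6.

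Ahrr, the repressor that competes with AhR for ARNT and is itself an AhR target, was lower with CCM in every same-numbered pair of libraries of all 4 comparisons. In WT it was 64.3, 59.0 and 49.0 CPM with LPS and 29.96, 29.54 and 30.03 CPM with LPS+CCM. The groups did not overlap: the highest LPS+CCM library lay below the lowest LPS library. Ahrr fell 1.91-fold (log2 fold change -0.93, standard error 0.0928, n = 3 each, edgeR adjusted p = 0.000157). In unstimulated WT it was 18.6, 17.03 and 19.1 CPM with vehicle and 10.9, 9.23 and 11.2 CPM with CCM, again without overlap. Its difference of -0.79 on the log2 scale (standard error 0.108, 1.73-fold lower) missed the threshold at an edgeR adjusted p of 0.0548. DESeq2 called it (adjusted p = 8.0e-06), as did edgeR without the count filter (1.3e-05), and over the 11 alternatives the adjusted p ran from 8.0e-06 to 1.

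In KO libraries Ahrr ran from 7.44 over a median of 19.4 to 23.8 CPM with vehicle and from 2.99 over a median of 10.7 to 12.4 CPM with CCM. With LPS it ran from 19.8 over a median of 62.9 to 70.8 CPM, and with LPS+CCM from 10.5 over a median of 24.7 to 38.6 CPM. Replicate 6 was the lowest of each group and the reason the ranges overlapped: without it the vehicle libraries started at 17.8 CPM and the LPS libraries at 56.0 CPM, above every library with CCM in the same stimulation. The log2 fold change with CCM was -0.97 in unstimulated KO (standard error 0.311, n = 6 each, edgeR adjusted p = 1.0) and -1.14 under LPS in KO (standard error 0.324, edgeR adjusted p = 0.254), neither of them called. Without replicate 6 both were called, at -0.96 (edgeR adjusted p = 0.00341) and -1.14 (0.0170). Without replicates 2 and 6 the first was called at -0.95 (0.0414) and the second was not, at -1.07 (0.200). In unstimulated KO, where same-numbered libraries deviated together, the replicate number as a block gave -0.98 (edgeR adjusted p = 0.000498). Over the 13 alternatives the adjusted p ran from 0.000147 to 1.0 in unstimulated KO and from 0.00171 to 0.940 under LPS. LPS raised Ahrr 3.20-fold in WT (log2 fold change 1.68, standard error 0.103, edgeR adjusted p = 2.7e-07) and 3.02-fold in KO (1.60, standard error 0.291, edgeR adjusted p = 0.000481; 1.61 without replicate 6).

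Cyp1b1, an AhR target that encodes an oxidising enzyme of hormones and xenobiotics, was, like Ahrr and Tiparp, lower with CCM in every same-numbered pair. In WT it was 37.6, 53.3 and 55.02 CPM with LPS and 22.1, 31.8 and 29.1 CPM with LPS+CCM. The highest library with CCM lay below the lowest without it. Cyp1b1 fell 1.75-fold (log2 fold change -0.81, standard error 0.151, n = 3 each, edgeR adjusted p = 0.00664). In unstimulated WT it was 23.2, 37.0 and 49.8 CPM with vehicle and 10.1, 18.5 and 31.6 CPM with CCM. Replicate 3 was the highest and replicate 1 the lowest of both groups, the groups overlapped, and the log2 difference of -0.86 (standard error 0.378, edgeR adjusted p = 0.496) was not called, though edgeR without the count filter called it (adjusted p = 0.000779, with 0.000779 to 1 over the 11 alternatives). Leaving out single libraries moved the value from -1.37 (without CCM replicate 3) to -0.53 (without CCM replicate 1).

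KO libraries had Cyp1b1 from 23.9 over a median of 34.6 to 54.3 CPM with vehicle and from 9.34 over a median of 19.7 to 28.3 CPM with CCM. With LPS they ran from 34.6 over a median of 48.3 to 97.5 CPM, and with LPS+CCM from 14.2 over a median of 31.1 to 35.7 CPM. The groups overlapped with and without LPS, and replicate 6 lay among the others, apart from its vehicle value, the lowest of that group. The log2 fold change with CCM was -0.96 in unstimulated KO (standard error 0.312, n = 6 each, edgeR adjusted p = 1.0) and -1.14 under LPS (standard error 0.298, edgeR adjusted p = 0.181). Without replicate 6 these were -0.98 (0.165) and -1.08 (0.103), and without replicates 2 and 6 they were -0.93 (0.413) and -1.20 (0.365), none of them called. With the replicate number as a block, the value in unstimulated KO was called at -1.01 (edgeR adjusted p = 0.00103). Over the 13 alternatives the adjusted p ran from 0.000614 to 1.0 in unstimulated KO and from 0.00209 to 0.667 under LPS. With LPS alone Cyp1b1 was not called, with log2 fold changes of 0.43 in WT (standard error 0.243, edgeR adjusted p = 0.149) and 0.61 in KO (standard error 0.275, edgeR adjusted p = 0.0885; 0.58 without replicate 6). The WT value was called in 3 of its 11 alternatives, among them the test without the count filter (0.40, adjusted p = 1.9e-05) and the fit without vehicle replicate 3 (0.73, 0.00795), over a range of 1.9e-05 to 0.507. In KO the replicate block gave 0.58 and a call (edgeR adjusted p = 6.8e-06, with 6.8e-06 to 0.167 over the 13 alternatives).

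Markers of fibroblasts, cells in which Cyp1b1 is also expressed, varied between the same libraries. All 5 (Col1a1, Col1a2, Col3a1, Dcn and Pdgfra) were above 0 in all 36 libraries, with Col1a1 or Col1a2 the most abundant. In WT they summed to 492, 683 and 1382 CPM with vehicle, 327, 581 and 792 with CCM, 514, 734 and 706 with LPS and 697, 602 and 628 with LPS+CCM. In unstimulated WT the sum followed the order of the Cyp1b1 levels, lowest in replicate 1 and highest in replicate 3 of both groups, and was lower with CCM in each number. Under LPS in WT the mean sum was 651 CPM with LPS and 642 with LPS+CCM, and the groups overlapped. KO libraries summed from 494 over a median of 679 to 1419 CPM with vehicle, 302 over 643 to 1155 with CCM, 467 over 719 to 1659.5 with LPS and 314 over 777 to 1277 with LPS+CCM. The mean sum in KO was 822 CPM with vehicle and 695 with CCM, then 864 with LPS and 729 with LPS+CCM. All 5 markers had negative log2 fold changes with CCM in unstimulated WT (median -0.42), unstimulated KO (-0.23) and under LPS in KO (-0.31). Under LPS in WT, 3 of 5 were negative (median -0.11). Of all genes tested, 7363 of 14024, 6404 of 13799, 6619 of 13386 and 6406 of 13579 were negative, in the same order. The library with the highest sum (KO LPS replicate 5) had the highest Cyp1b1, 97.5 CPM, and that with the lowest sum (KO CCM replicate 3) the lowest, 9.34 CPM. No fibroblast marker was called with CCM: edgeR called 0 of 5 in each of the 4 comparisons, with 1 of 5 at an unadjusted p under 0.05 under LPS in WT (Col3a1, log2 fold change -0.52, standard error 0.187, adjusted p = 0.106; 3493 of all 13579 genes) and 0 in the others. Of all genes tested, 0.057% were called in unstimulated WT, 0% in unstimulated KO, 11.9% under LPS in WT and 0.112% under LPS in KO. The part of fibroblasts in the Cyp1b1 differences was not tested.

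**Figure D2:**
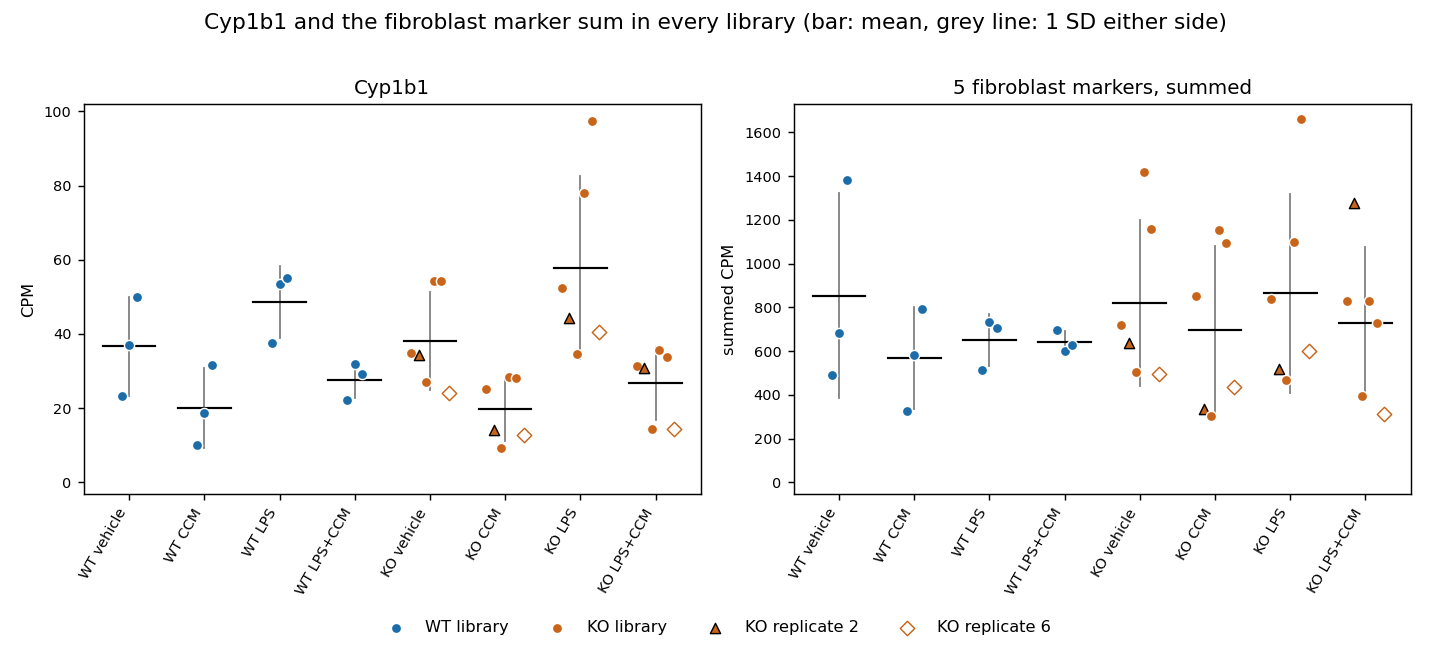
Cyp1b1 (left, CPM) and the summed level of 5 fibroblast markers (right, summed CPM) in the 36 libraries, by genotype and treatment; bars are means and grey lines 1 SD either side. Under LPS in WT, Cyp1b1 is 37.6 to 55.02 CPM without and 22.1 to 31.8 CPM with CCM, while the marker sums of 514 to 734 and 602 to 697 CPM overlap.

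Tiparp encodes an ADP-ribosyltransferase that AhR induces and that in turn limits AhR. In WT it was 135, 128 and 117 CPM with LPS and 87.8, 81.3 and 82.2 CPM with LPS+CCM. Every library with CCM lay below every library without it. Tiparp fell 1.5-fold (log2 fold change -0.59, standard error 0.0637, n = 3 each, edgeR adjusted p = 0.00025). In unstimulated WT it was 33.1, 35.4 and 39.4 CPM with vehicle and 31.2, 30.6 and 31.9 CPM with CCM, which did not overlap either, but the log2 difference of -0.20 (standard error 0.0818, edgeR adjusted p = 0.474) was not called and ran from -0.27 to -0.12 with single libraries left out.

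KO libraries had Tiparp from 16.2 over a median of 38.5 to 39.3 CPM with vehicle and from 13 over a median of 34.2 to 37.6 CPM with CCM. With LPS they ran from 54.2 over a median of 119 to 140 CPM and with LPS+CCM from 35.1 over a median of 73.7 to 94.2 CPM. Replicate 6 was the lowest of each group; without it the LPS libraries started at 116 CPM, above all those with LPS+CCM. Under LPS in KO, CCM gave a log2 difference of -0.70 (standard error 0.239, n = 6 each, edgeR adjusted p = 0.378), lower in 6 of 6 same-numbered libraries. It was called at -0.69 without replicate 6 (edgeR adjusted p = 0.0189) and not at -0.63 without replicates 2 and 6 (0.209), and over the 13 alternatives the adjusted p ran from 0.00205 to 0.997. In unstimulated KO the value was -0.15 (standard error 0.247, edgeR adjusted p = 1.0; -0.14 without replicate 6 and -0.13 without replicates 2 and 6), lower in 6 of 6 as well. LPS raised Tiparp 3.58-fold in WT (log2 fold change 1.84, standard error 0.0872, edgeR adjusted p = 3.9e-08) and 3.31-fold in KO (1.73, standard error 0.229, edgeR adjusted p = 3.3e-05; 1.72 without replicate 6), and every LPS library lay above every vehicle library of its genotype.

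Cyp1a1, the most used indicator gene of AhR activity, was near the limit of detection. Its counts ran from 0 to 20 read pairs per library, with 170 in all 36 libraries together and 0 in 5 of them, and its level from 0 to 0.738 CPM. In WT it was 0, 0.133 and 0.610 CPM with vehicle, 0.0919, 0 and 0.574 with CCM, 0.354, 0.738 and 0.322 with LPS and 0, 0.105 and 0.156 with LPS+CCM. Under LPS the 3 WT libraries with CCM (0, 2 and 3 counts) lay below the 3 without it (6, 17 and 8 counts), but the gene was removed by the count filter in each comparison of 2 groups. It entered 1 test, the LPS by CCM interaction in WT, at a log2 value of -2.15 (standard error 1.64, edgeR adjusted p = 0.634). KO medians were 0.284 CPM with vehicle and 0.195 with CCM, then 0.185 with LPS and 0.118 with LPS+CCM, and all 4 KO groups overlapped. Cyp1a1 therefore has counts, and no test between 2 groups.

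**Figure D3:**
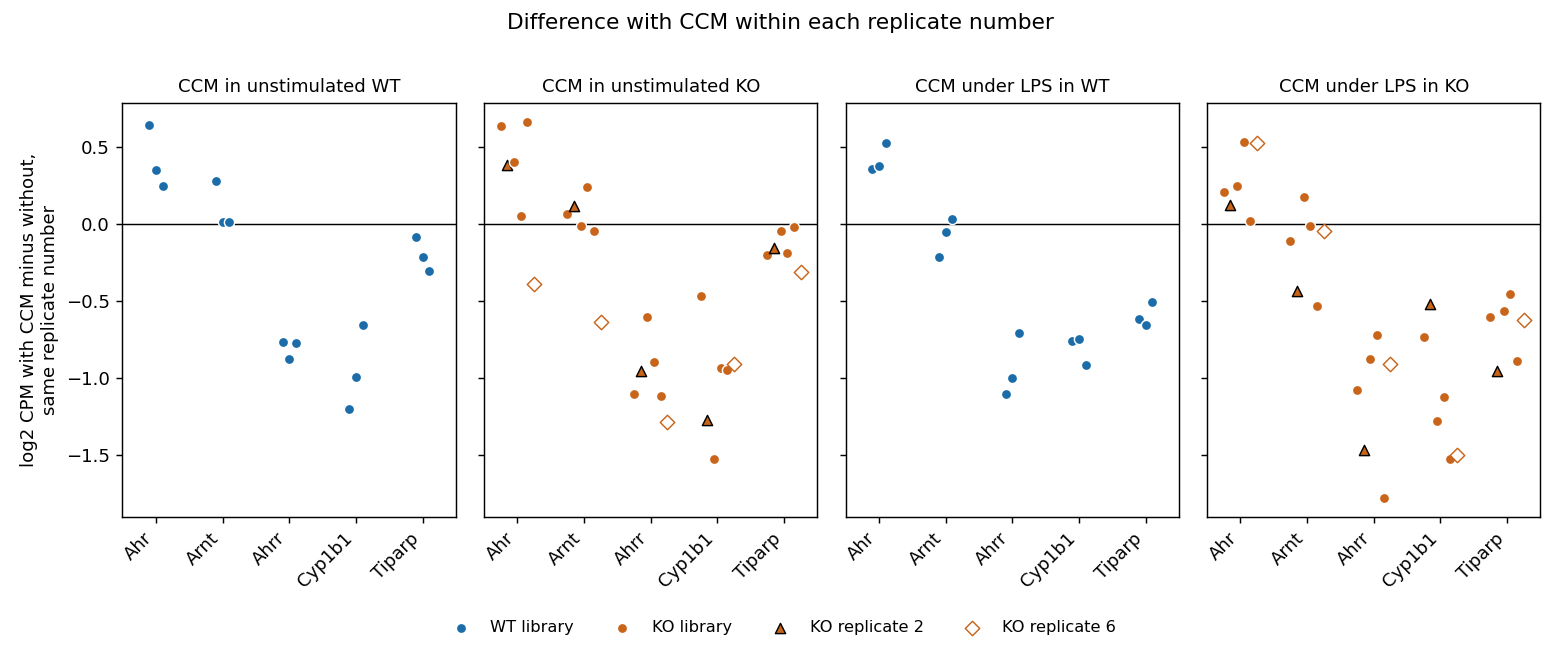
Difference in log2 CPM (prior count 2) between libraries with and without CCM of the same replicate number, for 5 members in the 4 CCM comparisons; 0 is no difference, and KO replicates 2 and 6 have their own symbols. Ahrr, Cyp1b1 and Tiparp lie below 0 in 3 of 3 WT and 6 of 6 KO numbers with and without LPS, while Ahr lies above 0 except in KO replicate 6 without LPS.

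The members were chosen with earlier results of these data known, so their counts beside all genes tested are a description. Under LPS in WT, 4 of the 5 members tested were called, where 11.9% of all 13579 genes tested were. Of these, 1 (Ahr) was higher, beside 4.15% of all genes, and 3 (Ahrr, Cyp1b1 and Tiparp) were lower, beside 7.78%. The members' median log2 fold change was -0.59 and that of all genes 0.01. Blocking on replicate number, 3226 genes (23%) and the same count of 4 members were called. A single fit of all 36 libraries, into which the wider spread of the KO libraries enters, called 17 genes and 0 members there, with adjusted p of 0.794 for Ahrr and 1 for Ahr, Cyp1b1 and Tiparp. Over the 11 alternatives of each, the adjusted p ran from 1.5e-31 to 0.794 for Ahrr, from 1.8e-22 to 1 for Cyp1b1 and from 4.2e-18 to 1 for Tiparp, and each of the 3 was called in 10. The count of 1621 called genes moved to 958 without LPS replicate 2 and to 893 without LPS+CCM replicate 2, and Ahrr, Cyp1b1 and Tiparp were called in both. The CCM comparison under LPS and the LPS comparison share the LPS libraries, so their values are not independent.

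Under LPS in KO, edgeR called 15 of 13386 genes (0.112%) and 0 of the 5 members tested, of which 3 had an unadjusted p under 0.05, beside 1070 of all genes; DESeq2 called 180 genes, 2 of them members. The members' median log2 fold change was -0.70, that of all genes 0.00. Without KO replicate 6, 170 genes (1.27%) and 2 members, Ahrr and Tiparp, were called, and without replicates 2 and 6, 9 genes (0.0667%) and 0 members. The count of 15 fell to 0 without replicate 1 or 2, 7 without replicate 3, 2 without replicate 4 and 4 without replicate 5.

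In unstimulated WT, 8 of 14024 genes (0.057%) and 0 of 5 members were called by edgeR, with 4 members and 1404 of all genes at an unadjusted p under 0.05; DESeq2 called 247 genes and 1 member, Ahrr. The count of 8 moved to 0 without any 1 of the 3 CCM libraries, to 2, 1 and 16 without vehicle replicates 1, 2 and 3. In unstimulated KO edgeR called 0 of 13799 genes (0%), with 333 at an unadjusted p under 0.05, 2 of them members, and DESeq2 called 24 genes and 0 members. Without KO replicate 6, 141 genes (1.01%) and 1 member, Ahrr, were called, and without replicates 2 and 6, 7 genes (0.0502%) and again Ahrr. The replicate block called 415 genes there (2.76%), with Ahrr and Cyp1b1 among them. The members' median log2 fold change was -0.20 in unstimulated WT and -0.15 in unstimulated KO, beside -0.01 and 0.01 over all genes tested.

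With LPS the members' calls were all higher, though that of Arnt in WT rests on the scaling, as above, and was kept in 5 of its 11 alternatives. In WT, 4 of 5 members were called, 3 of them Ahr, Ahrr and Tiparp, where 63% of 14501 genes were called and 30.6% were called higher. In KO, 3 of 5 were called, where 47.1% of 13648 genes were called and 22.4% were called higher. Without KO replicate 6 the same 3 members and 69.4% of genes were called, and with the replicate block 4 members (with Cyp1b1) and 68%. Median log2 fold changes of the members were 1.68 in WT and 1.60 in KO, those of all genes -0.05 in both.

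**Figure D4:**
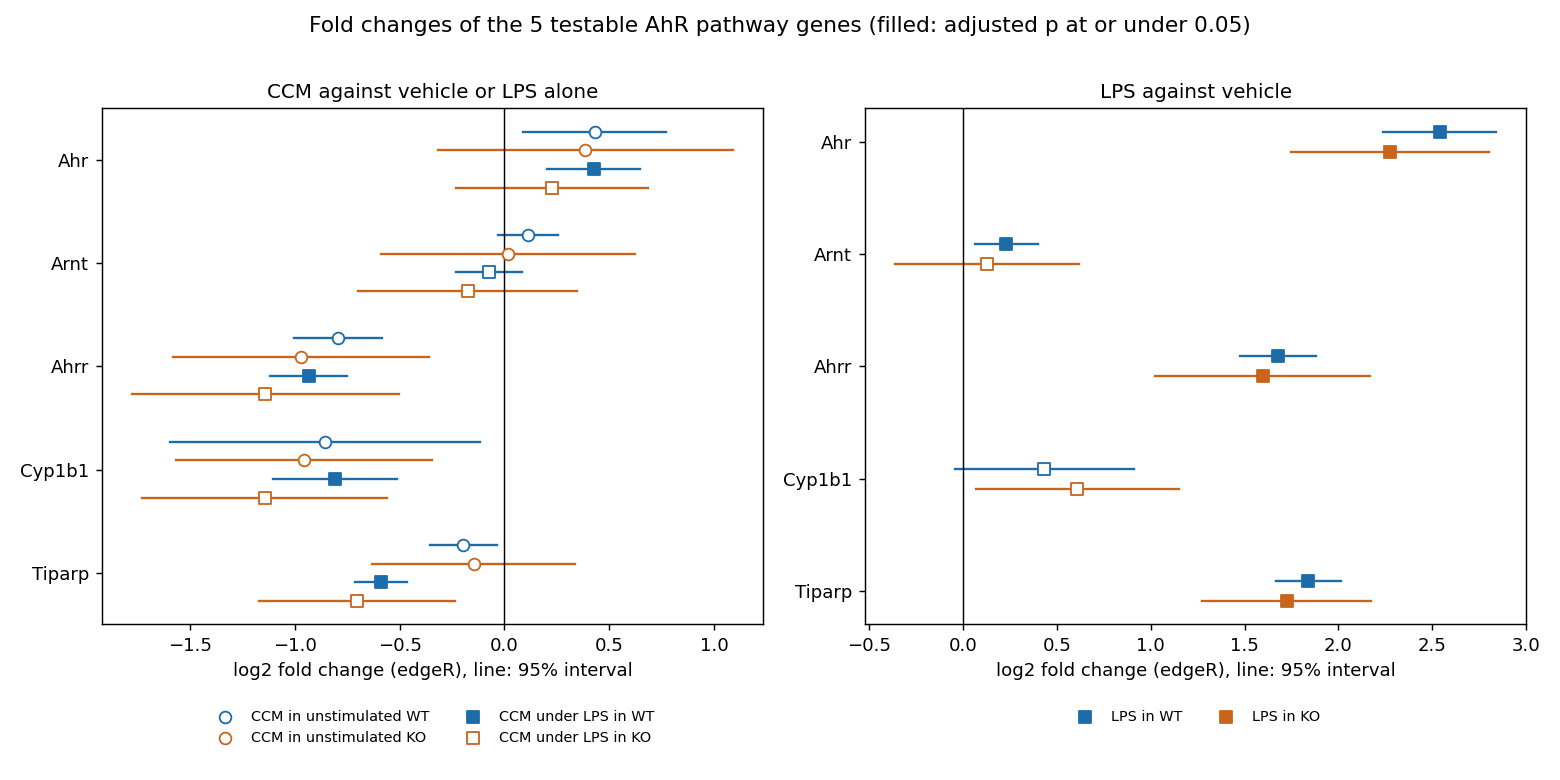
Log2 fold changes of the 5 members with enough counts for a test (points, edgeR; lines, 95% intervals), for CCM in 4 comparisons (left) and LPS in 2 (right); filled points have an adjusted p of at most 0.05. With CCM the filled points are Ahr (0.43), Ahrr (-0.93), Cyp1b1 (-0.81) and Tiparp (-0.59) under LPS in WT.

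Whether the genotypes or the stimulations differed was tested by interaction terms. Between KO and WT themselves, with vehicle, edgeR called 0 of 14385 genes (0%), with 118 at an unadjusted p under 0.05 and 1 called by DESeq2, and no member was called. Under LPS it called 0 of 13794 genes (0%), with 105 at an unadjusted p under 0.05 and 1 called by DESeq2. The members' log2 differences KO against WT ran from -0.09 (Arnt) to 0.09 (Cyp1b1) with vehicle and from -0.19 (Arnt) to 0.27 (Cyp1b1) under LPS. For the genotype by CCM interaction, 0 of 14905 genes (0%) were called without LPS and 0 of 14546 (0%) under LPS by edgeR, with 85 and 72 at an unadjusted p under 0.05 and 0 and 0 called by DESeq2. Under LPS the interaction was -0.19 for Ahrr (95% interval -1.13 to 0.75), -0.32 for Cyp1b1 (-1.24 to 0.59), -0.10 for Tiparp (-0.79 to 0.59) and -0.18 for Ahr (-0.87 to 0.51). Without LPS it was -0.19 for Ahrr (-1.08 to 0.71) and -0.11 for Cyp1b1 (-1.22 to 1.0). A member called with CCM in WT and not in KO is therefore not shown to differ between the genotypes, and these intervals are too wide to show that CCM acted alike in both. Without KO replicate 6 the interactions under LPS were -0.19 for Ahrr, -0.26 for Cyp1b1 and -0.09 for Tiparp, and without LPS they were -0.16 for Ahrr and -0.13 for Cyp1b1; none was called.

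The LPS by CCM interaction in WT, which asks whether CCM changed a gene more under LPS than without it, called 308 of 14747 genes (2.09%) and 0 of the 6 members. Tiparp came nearest, with -0.41 (standard error 0.105, 95% interval -0.61 to -0.20, edgeR adjusted p = 0.0655). It was called in 5 of its 17 alternatives, among them DESeq2 (adjusted p = 0.00597), RLE size factors (0.0483), no count filter (0.0171) and the fit without vehicle replicate 3 (0.0292), over a range of 0.00597 to 1.0. For Ahrr the interaction was -0.15 (standard error 0.141, 95% interval -0.43 to 0.12, adjusted p = 0.709) and for Cyp1b1 0.03 (standard error 0.459, 95% interval -0.87 to 0.93, adjusted p = 0.989). The count of 308 moved to 186 and 158 without LPS replicate 1 or 2, to 203, 204 and 181 without CCM replicate 1, 2 or 3, to 152 and 149 without LPS+CCM replicate 2 or 3, and to 200 without vehicle replicate 2.

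Other genes of the pathway were followed by list. Among other classical AhR target genes (Cyp1a2, Nqo1, Aldh3a1, Ugt1a6a, Ugt1a6b, Gsta1 and Nfe2l2), 4 of 7 had enough counts for a test with CCM under LPS in WT, and 1 was called, beside 11.9% of all genes. Nqo1, a quinone reductase gene, was 16.5 to 19.7 CPM with LPS (median 19.3) and 13.4 to 14.5 CPM with LPS+CCM (median 14). These ranges did not overlap, and Nqo1 fell 1.32-fold (log2 fold change -0.40, standard error 0.0931, edgeR adjusted p = 0.0205). In KO, 0 of 3 tested were called under LPS, beside 0.112% of all genes. Nqo1 was lower there with CCM in 5 of 6 same-numbered libraries. Without LPS, 0 of 4 were called in WT and 0 of 2 in KO, beside 0.057% and 0% of all genes. Cyp1a2, like Cyp1a1 a classical target, had 1 read pair in the 36 libraries together. With LPS, 3 of 5 tested were called in WT and 2 of 3 in KO, all higher, beside 30.6% and 22.4% of all genes called higher and 63% and 47.1% called in either direction.

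Enzymes of tryptophan breakdown, only some of whose products are AhR ligands, were Ido1, Ido2, Tdo2, Il4i1, Afmid, Kmo, Kynu and Haao. Of these, 5 of 8 were tested with CCM under LPS in WT. The test called 2, both lower (11.9% of all genes were called), and the median log2 fold change was -0.90. Kynu, the kynureninase gene, was 17.4 to 21.1 CPM with LPS and 8.90 to 12.3 CPM with LPS+CCM, which did not overlap. It changed by -0.90 on the log2 scale (standard error 0.129, edgeR adjusted p = 0.0014). Ido2, an indoleamine dioxygenase gene, was 5.14 to 6.04 CPM with LPS and 2.40 to 3.08 CPM with LPS+CCM, again without overlap, at -1.06 (standard error 0.173, edgeR adjusted p = 0.0031). Under LPS in KO 0 of 5 were called, beside 0.112% of all genes, with 3 at an unadjusted p under 0.05 (1070 of all 13386 genes). Kynu was lower there with CCM in 6 of 6 same-numbered libraries. Without LPS, 0 of 3 were called in either genotype, beside 0.057% of all genes in WT and 0% in KO. The median log2 fold changes of the list were -0.73 in WT and -0.56 in KO. LPS raised 3 of 6 tested in WT, among them Kynu from a mean of 1.51 to 19.3 CPM, and raised 4 and lowered 1 (Haao) of 6 in KO. Of all genes, 63% were called in WT and 47.1% in KO.

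Of 16 genes for other bHLH-PAS proteins and coactivators, 10 were tested with CCM under LPS in WT and 2 were called, beside 11.9% of all genes. Arntl rose from 8.08 to 10.2 CPM with LPS to 11.5 to 12.9 CPM with LPS+CCM (log2 fold change 0.43, standard error 0.120, edgeR adjusted p = 0.0441). Its count may include reads of Gm45355, which overlaps it on the other strand. Npas4 fell from 0.886 to 1.01 CPM to 0.178 to 0.314 CPM (log2 fold change -1.86, standard error 0.382, edgeR adjusted p = 0.011), at levels near those of genes removed by the filter. In the other 3 CCM comparisons 0 were called, of 11 tested in unstimulated WT, 10 in unstimulated KO and 9 under LPS in KO. Of all genes tested, 0.057%, 0% and 0.112% were called there, in the same order. Npas4 was still lower with CCM in 3 of 3 same-numbered libraries of unstimulated WT, without overlap. It was lower in 6 of 6 of unstimulated KO and 5 of 6 under LPS in KO, with overlap. The study named NPAS4 among the few genes significant with CCM in unstimulated macrophages. With LPS, 7 of 11 were called in WT (2 higher, 5 lower), where 63% of all genes were, and 6 of 11 in KO (2 higher, 4 lower), where 47.1% were. Hif1a, which encodes another partner of ARNT, rose in WT from 60.3 to 73.5 CPM to 224 to 239 CPM (log2 fold change 1.82, standard error 0.0816, edgeR adjusted p = 2.5e-08).

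Of the cell marker lists with CCM under LPS in WT, beside 11.9% of all genes called, 3 of 7 macrophage genes were called, Csf1r higher (log2 fold change 0.27, standard error 0.0414) and Mertk (-0.21, standard error 0.0526) and Fcgr1 (-0.31, standard error 0.0818) lower, with edgeR adjusted p of 0.00216, 0.0262 and 0.0338. One neutrophil gene, S100a9, was lower (-0.28, standard error 0.0708, edgeR adjusted p = 0.0292), and 0 of 2 B cell, 0 of 3 dendritic cell and 0 of 2 erythroid genes tested were called, while no T cell gene had enough counts for a test. The dendritic cell genes summed to 5.07 to 5.34 CPM with LPS and 2.57 to 3.13 CPM with LPS+CCM, which did not overlap. Their median log2 fold change was -0.94, and 2 of the 3 tested had an unadjusted p under 0.05, beside 3493 of all 13579 genes. In the other 3 CCM comparisons edgeR called 0 of the marker genes tested. Of all genes, it called 0.057% in unstimulated WT, 0% in unstimulated KO and 0.112% under LPS in KO. The part of cell composition in the members' differences was not tested.

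Genes among those whose log2 CPM followed each member most closely over the 36 libraries, among 12571 genes with a mean of at least 1 CPM, are given as a description. For Ahr they included Jag1 and Ampd3 (Pearson r 0.98 each). For Ahrr they were Gpr141 (0.96), Tiparp (0.95), another member, and Prag1 (0.94), with 0.95, 0.93 and 0.93 over the 32 libraries without KO replicate 6. Arnt was followed by Atp7a, Lilrb4a and Itsn2 (0.99 each), which fell to 0.88, 0.86 and 0.90 without replicate 6, so these values rest in part on its low libraries. For Cyp1b1 they included Fbn1 (0.87) and Errfi1 (0.86), the lowest values of the 5 members, and for Tiparp Rnf145, Sec24b and Nfxl1 (0.99 each). The libraries of a genotype and treatment share these patterns with any gene that LPS changed, and no p is attached.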

How the data were processed

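RNA-seq was examined for macrophages of 2 genotypes and 4 treatments, 36 libraries in all. The authors selected RNA with poly(A) tails, sequenced it as paired ends, and per the labels used fastp, HISAT2 2.0.5 and featureCounts 1.5.0-p3 with the build mm10. The deposited values are raw counts per gene, with a column of gene length in bases. From the counts, each comparison was fitted on its own libraries with edgeR 4.0.16 in R 4.3.3 (filterByExpr, TMM, estimateDisp, glmQLFit, glmQLFTest, two-sided, no block), adjusted over all genes tested. CPM of single genes use TMM factors over all genes, and log2 CPM a prior count of 2. All 36 count columns were used.

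The members and lists were chosen with earlier results of these data known. Values are given for the 6 members, for listed genes that were called or whose level was needed, for Arntl and for genes among the 3 most like each member with a mean of at least 1 CPM. Lyz2, Adgre1, Csf1r, Mertk, Fcgr1 and Hba-a1 were singled out after their values were seen. Markers of macrophages, neutrophils, fibroblasts, erythroid, dendritic, B and T cells were used to examine the libraries. Alternatives tried were RLE size factors, DESeq2 1.42.0, every gene with at least 1 count, the replicate number as a block, one fit of all 36 libraries, total counts as scaling, a shorter promoter window and leaving out each replicate. Leaving out KO replicates 2 and 6 together, and the block without KO replicate 6, were chosen after seeing the data.

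Pairing by replicate number was checked by correlating the libraries' deviations from their group means over 12571 genes, and a block was taken to hold where every pair exceeded 0.1. In unstimulated KO with CCM the correlations were 0.391 to 0.887, in WT under LPS with CCM 0.165 to 0.380 and in KO with LPS 0.316 to 0.868, beside medians of 0.268, -0.153 and 0.214 between libraries with different numbers. The other comparisons each had a pair below the bar. In KO the medians of 0.268 and 0.214 between different numbers were themselves above 0.1. Passing the bar there therefore does not set same numbers apart from different ones. The tests were also run on simulated data, but no outcome is given here and no result above draws on it.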

Additional observations from a re-analysis of the deposited data

Results flagged for a closer look

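In groups of 6 KO libraries, the lowest or highest value was compared with its neighbour by the share of the group's range that lies between them. Of 28 groups (7 genes in 4 treatments), 9 had a value set apart by this measure, and all 9 were low values of KO replicate 6. They were Ahrr with vehicle (7.44 CPM) and with LPS (19.8 CPM), Arnt with vehicle (19.4 CPM), with CCM (12.5 CPM) and with LPS (20.2 CPM), Tiparp with vehicle (16.2 CPM), with CCM (13 CPM) and with LPS (54.2 CPM), and Arntl with vehicle (2.87 CPM). Chance flags about 1 in 20 groups, and the 28 are not independent, since they share libraries. What sets replicate 6 apart was not tested.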

How the results depend on the processing

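Of 782 values of 56 member results under another setting, 697 kept their direction and their side of the threshold, 14 lost a call, 32 gained one and 39 changed direction; the cause was not tested. DESeq2 called 247 genes with CCM in unstimulated WT, 24 in unstimulated KO and 180 under LPS in KO, 1 and 1 for KO against WT with vehicle and under LPS, and 696 for the LPS by CCM interaction in WT. Without the count filter 377 genes were called with CCM in unstimulated WT and 721 for the interaction. KO replicates 2 and 6 left out gave 7 and 9 genes with CCM in KO without and with LPS, and 5 and 5 for KO against WT with vehicle and under LPS. One fit of all 36 libraries called 0 and 14 genes with CCM in unstimulated WT and KO, 17 and 285 under LPS in WT and KO, 5644 with LPS in WT and 0 for the interaction.

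Blocking on replicate number, edgeR called 252 genes with CCM in unstimulated WT and 415 in KO, 3226 and 727 under LPS in WT and KO, 10300 with LPS in KO, and in the interaction of LPS and CCM 548. The pairing was not borne out by every pair in unstimulated WT, under LPS in KO and with LPS in WT. The paired values that became calls were those of Cyp1b1 with LPS in WT (0.47) and KO (0.58), of Tiparp in the interaction (-0.41), and with CCM those of Ahrr -0.80 and Cyp1b1 -0.92 in unstimulated WT, Ahrr -0.98 and Cyp1b1 -1.01 in unstimulated KO, and Ahrr -1.17, Cyp1b1 -1.14 and Tiparp -0.71 under LPS in KO; Arnt turned to -0.017 in unstimulated KO. The block without KO replicate 6 called 714, 299 and 10437 genes in unstimulated KO, under LPS in KO and with LPS in KO, and gained Ahrr -0.95 and Cyp1b1 -1.02 in the first, Ahrr -1.19, Cyp1b1 -1.05 and Tiparp -0.70 in the second, and Cyp1b1 0.54 in the last.

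DESeq2 gained the calls of Ahrr in unstimulated WT (-0.79) and of Ahrr (-1.14) and Cyp1b1 (-1.15) under LPS in KO, and the unfiltered test those of Ahrr (-0.80) and Cyp1b1 (-0.86) in unstimulated WT and of Cyp1b1 with LPS in WT (0.40). One fit of all 36 libraries lost the 4 calls under LPS in WT (Ahr 0.42, Ahrr -0.94, Cyp1b1 -0.81, Tiparp -0.59) and gained that of Ahrr under LPS in KO (-1.13). Leaving out KO replicates 2 and 6 gained Ahrr in unstimulated KO (-0.95) and turned Arnt (0.0499) and Tiparp (0.14) for KO against WT with vehicle, Ahrr under LPS (0.16), and the genotype by CCM interaction of Ahr without LPS (0.0028). The unfiltered LPS by CCM interaction of Ahr turned to 0.00081.

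Leaving out 1 replicate at a time gave 0 to 16 genes with CCM in unstimulated WT, 0 to 141 in unstimulated KO, 893 to 1352 under LPS in WT, 0 to 170 under LPS in KO, 149 to 295 in the interaction of LPS and CCM, and 0 to 1 for KO against WT under LPS. Member values that changed call or direction ranged, with CCM, from -1.04 to -0.92 (Ahrr) and -0.038 to 0.054 (Arnt) in unstimulated KO, 0.30 to 0.50 (Ahr) and -0.15 to 0.013 (Arnt) under LPS in WT, and -1.25 to -1.02 (Ahrr) and -0.75 to -0.65 (Tiparp) under LPS in KO. With LPS in WT they were 0.15 to 0.31 (Arnt) and 0.20 to 0.73 (Cyp1b1). For KO against WT with vehicle they were -0.024 to 0.22 (Ahr), -0.028 to 0.20 (Ahrr), -0.15 to 0.045 (Arnt), -0.15 to 0.38 (Cyp1b1) and -0.10 to 0.090 (Tiparp), and under LPS -0.12 to 0.15 (Ahrr). The LPS by CCM interaction ranged over -0.14 to 0.053 (Ahr), -4.15 to 0.046 (Cyp1a1), -0.28 to 0.54 (Cyp1b1) and -0.48 to -0.34 (Tiparp), and the genotype by CCM interaction without LPS over -0.16 to 0.024 (Ahr), -0.43 to 0.39 (Cyp1b1) and -0.037 to 0.11 (Tiparp). With 3 WT libraries per group, a fit without 1 of them rests on 2. With total counts as scaling, 13 of the 48 mean levels moved by more than their SD. Among the remaining results, the call of Tiparp in the LPS by CCM interaction was gained by 4 settings (-0.43, -0.43, -0.39 and -0.41), Arnt with LPS in WT was lost without the filter and in the single fit (0.19 and 0.23), and GCGTG lay in 28.2% of promoters in the 250 bases upstream alone. The 2 settings that leave out KO replicates 2 and 6, or block without replicate 6, were added after the data were seen.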
